A study of Mus musculus with 6 samples.

Results

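Genes for immune checkpoint ligands and receptors were examined in skin RNA from mice of 2 Atr genotypes. The set holds 10 genes chosen by symbol: Cd274, Pdcd1lg2, Cd276, Lgals9, Cd80, Cd86, Lag3, Havcr2, Ctla4 and Cd200. All 10 are rows of the deposited table of 14484 genes. In that table every gene reached at least 1 CPM (counts scaled to library size) in at least 3 samples. All 6 samples carried 1 Braf CA allele and Cre, on a C57BL/6-129J background. The 3 ATR WT samples were ATR +/+. The 3 ATR mD/mD samples carried ATR fl/fl, which removes part of the kinase domain. The design text calls the tissue nevi, benign growths of pigment cells, and the tissue label says skin. The labels name neither the promoter that drives Cre nor the cells in which it acts, and they give no age or sex. No label says that the samples of 1 genotype are different mice. A p-value below covers the spread among the samples given, in which technical and animal differences cannot be told apart. The title of the series concerns the immune surroundings of melanoma with mutant ATR, and the question here is whether checkpoint transcripts differ between the 2 genotypes in skin.

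Immune checkpoints are pairs of surface proteins that set how strongly a T cell or a phagocyte responds. A T cell needs a second signal besides its antigen receptor, which CD80 and CD86 on antigen-presenting cells give through CD28. CTLA-4 competes for the same ligands and restrains the cell, and PD-L1 (Cd274) and PD-L2 (Pdcd1lg2) restrain it through PD-1. LAG-3 binds MHC class II, and TIM-3 (Havcr2) has galectin-9 (Lgals9) among its reported ligands. In skin, PD-L1 can be induced by interferon gamma on keratinocytes, pigment cells and myeloid cells, and CD200 on hair follicle cells signals to myeloid cells through its receptor.

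The libraries held between 34723600 and 46847751 gene counts. Markers of skin were present throughout: all 14 keratinocyte markers were measured, with a summed level between 16827 and 28702 CPM. All 12 melanocyte markers were measured, with a summed level between 137.7 and 925.9 CPM. Averaged over 36 genes of the hair follicle and shaft, log2 CPM was 1.78, 6.52 and 6.76 for ATR WT 1, 2 and 3, set against -0.07, 1.94 and 6.76 for ATR mD/mD 1, 2 and 3. Sex-linked transcripts split the libraries in another way. The mean of Ddx3y, Eif2s3y, Kdm5d and Uty was at or below -3.61 log2 CPM in ATR mD/mD 1 and both ATR WT 2 and ATR WT 3 and at or above 4.75 log2 CPM in the other 3. Xist was high in the libraries in which those Y-linked genes were low, with at least 18050 counts against at most 40, so both patterns occurred within each genotype and the 3 samples of a genotype were not all from 1 mouse. Atr counts cover the whole gene, so the level of 22.1 ± 3.87 CPM in wild-type and 22.6 ± 2.00 CPM in mutant skin (SD, n = 3) does not check the deletion.

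Promoters of 4 members are shown as a description, and no result rests on them. Lgals9 was the member whose genotype groups did not overlap. Cd274, Pdcd1lg2 and Cd80 are ligands whose levels followed the sex-linked split described below. Cd200 and Ctla4 followed that split too, and their promoters are not shown. Each run covers 250 bases before and 50 bases after the RefSeq start (GRCm38.p6), 5′ to 3′ in the direction of the gene. Capitals mark matches to the interferon regulatory factor core GAAANNGAA on either strand. Of 10 members, 8 had a promoter in the RefSeq table.
Lgals9 (chr11:78984875-78985174, minus strand): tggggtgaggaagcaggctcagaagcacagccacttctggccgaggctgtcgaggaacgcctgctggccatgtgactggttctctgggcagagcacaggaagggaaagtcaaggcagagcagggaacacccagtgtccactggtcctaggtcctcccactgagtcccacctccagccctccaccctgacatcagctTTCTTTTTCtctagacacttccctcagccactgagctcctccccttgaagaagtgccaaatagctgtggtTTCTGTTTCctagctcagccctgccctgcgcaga
Cd274 (chr19:29367188-29367487, plus strand): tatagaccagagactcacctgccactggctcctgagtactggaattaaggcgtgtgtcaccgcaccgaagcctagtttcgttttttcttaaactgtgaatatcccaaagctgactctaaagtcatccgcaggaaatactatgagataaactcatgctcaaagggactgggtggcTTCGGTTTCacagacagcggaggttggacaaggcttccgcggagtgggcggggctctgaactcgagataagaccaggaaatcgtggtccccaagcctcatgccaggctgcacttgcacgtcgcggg
Pdcd1lg2 (chr19:29410669-29410968, plus strand): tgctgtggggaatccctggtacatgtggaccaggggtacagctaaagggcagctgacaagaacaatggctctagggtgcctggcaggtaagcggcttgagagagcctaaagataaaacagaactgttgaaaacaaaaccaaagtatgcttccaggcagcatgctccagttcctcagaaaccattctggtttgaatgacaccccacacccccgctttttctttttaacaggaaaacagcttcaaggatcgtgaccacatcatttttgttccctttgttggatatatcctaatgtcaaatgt
Cd80 (chr16:38458683-38458982, plus strand): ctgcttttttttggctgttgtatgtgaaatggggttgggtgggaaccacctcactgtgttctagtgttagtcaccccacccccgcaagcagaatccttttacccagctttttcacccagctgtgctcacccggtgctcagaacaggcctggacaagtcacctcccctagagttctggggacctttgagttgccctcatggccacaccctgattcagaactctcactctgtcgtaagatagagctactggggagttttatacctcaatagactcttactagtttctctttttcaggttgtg
The Lgals9 promoter held this core at positions -54 and 16, counted from the start at 0. The Cd274 promoter held it at position -76, and the Ctla4 promoter at position -166. The core occurred in 8.56% of 32851 RefSeq promoters of this length. These are letter matches only.

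The members spanned a wide range of level. Per kilobase of annotated exon (GENCODE M21, mm10), Lgals9 and Cd200 were highest, with means over 6 libraries of 24.3 and 23.9 CPM per kb. Their ranges overlapped, and Lgals9 was above Cd200 in 4 of 6 libraries. Cd276 followed at 7.02 CPM per kb (range 6.79 to 7.51), above every library of Cd274, which had a mean of 4.49 CPM per kb (2.88 to 6.09). Havcr2, Cd86 and Lag3 had overlapping ranges, with means of 2.69, 2.16 and 2.03 CPM per kb. Ctla4 was at 1.26 CPM per kb and overlapped Lag3, but it was above Pdcd1lg2 and Cd80 in all 6 libraries, whose means were 0.467 and 0.358 CPM per kb. Pdcd1lg2 had 221 counts in all and Cd80 had 327, so these 2 genes carried the largest counting error of the set.

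No member passed the test of genotype. With the threshold of an adjusted p under 0.05 in the quasi-likelihood test of edgeR, 0 of 10 members were called, where 0.0483% of all genes were. At an unadjusted p under 0.05 it was also 0 of 10, where 1.66% of all genes were. DESeq2, limma-voom and the edgeR exact test called 0 members as well, both before and after adjustment. The log2 fold change (ATR mD/mD against ATR WT) was below 0 in 7 members and above 0 in 3, with a median of -0.17, while over all genes 6955 were below 0 and 7529 above, with a median of 0.01. The adjusted p was 0.9999 for every member (edgeR quasi-likelihood).

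**Figure D1:**
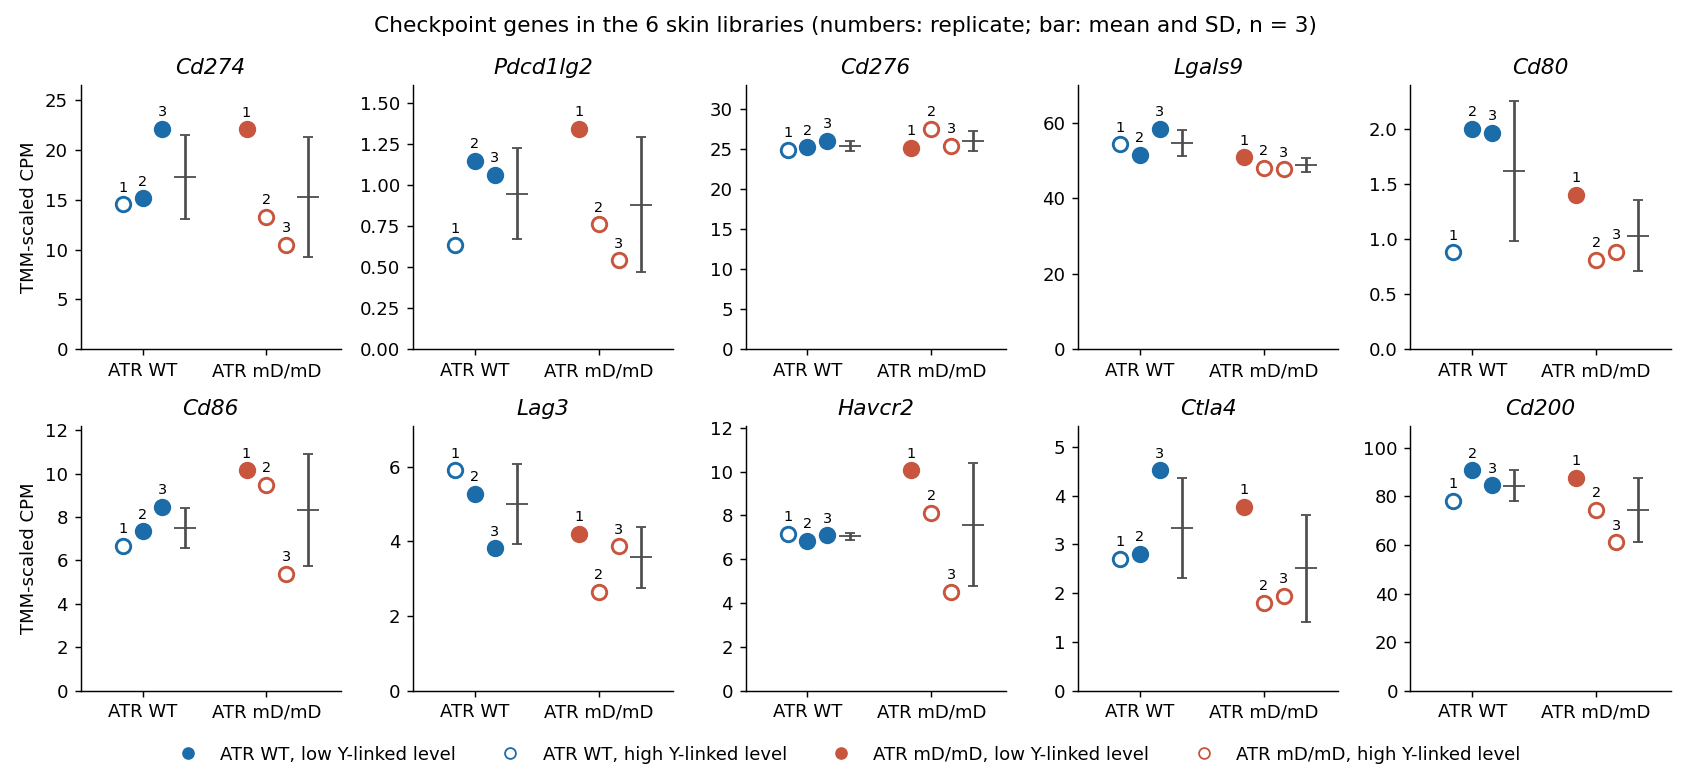
TMM-scaled CPM of each checkpoint gene (vertical axes, from 0) in ATR WT and ATR mD/mD skin, 1 point per library with its replicate number; the bar gives the mean and SD of 3 libraries. Filled points are libraries with a low level of Y-linked genes. Only in the Lgals9 panel do the 2 genotypes not overlap (51.5 CPM and above against 50.9 CPM and below).

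Among the ligands of PD-1, Cd274 (chromosome 19, 29367455 to 29388095, plus strand, mm10) varied more within the genotypes than between them. It stood at 14.5, 15.1 and 22.1 CPM in wild-type libraries 1 to 3, against 22.0, 13.3 and 10.4 CPM in mutant libraries 1 to 3. ATR WT 3 and ATR mD/mD 1 were high, ATR mD/mD 3 was low, and the groups overlapped. Between genotypes the log2 fold change was -0.18 (SE 0.319, 95% interval -0.94 to 0.59, unadjusted p = 0.598, edgeR). The authors' deposited table gives a log2 fold change of -0.18 and an adjusted p of 1 for this gene.

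Pdcd1lg2 lies 22.8 kb downstream of Cd274 on the same strand (29410919 to 29471161). It had 23, 50 and 52 counts in wild-type libraries and 47, 30 and 19 in mutant libraries, or 0.634, 1.15 and 1.06 CPM against 1.34, 0.762 and 0.544 CPM. As for Cd274, ATR mD/mD 1 was high and ATR mD/mD 3 was low, and the groups overlapped. On the log2 scale the fold change was -0.11 (SE 0.438, 95% interval -1.16 to 0.94, edgeR). The ratio of Cd274 counts to Pdcd1lg2 counts lay between 13.2 (ATR WT 2) and 22.9 (ATR WT 1). The PD-1 gene itself, Pdcd1, was not analysed here.

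Cd80 and Cd86 encode the B7 ligands shared by CD28 and CTLA-4, and their levels were not parallel. Cd80 (chromosome 16, 38455561 to 38496335, plus strand) reached 0.882, 2.00 and 1.96 CPM (ATR WT 1, 2, 3), set against 1.40, 0.813 and 0.887 CPM (ATR mD/mD 1, 2, 3). ATR WT 2 and ATR WT 3 were above all ATR mD/mD libraries, while ATR WT 1 lay among them. Its log2 fold change of -0.65 (SE 0.421, 95% interval -1.66 to 0.36, edgeR) was the most negative of the set. Without ATR WT 1 it was -0.93, with an unadjusted p of 0.041 and an adjusted p of 0.993 (edgeR). With each other library left out, the adjusted p was 0.883 (without ATR mD/mD 3) or above (edgeR). ATR WT 1 is also the ATR WT library of high Y-linked level, so leaving it out makes the sex-linked split less balanced over genotype.

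Cd86 (chromosome 16, 36603869 to 36666081, minus strand) measured 6.67, 7.34 and 8.47 CPM over ATR WT 1, 2 and 3 and, in order, 10.2, 9.47 and 5.38 CPM over ATR mD/mD 1, 2 and 3. Both the highest and the lowest libraries were ATR mD/mD, so the groups overlapped. Its log2 fold change came to 0.15 (SE 0.282, 95% interval -0.52 to 0.83, edgeR). Counts of Cd86 exceeded those of Cd80 in every library, by a ratio of 3.67 in ATR WT 2 up to 11.7 in ATR mD/mD 2.

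Cd276, the gene of the B7 family ligand B7-H3, was the steadiest member. It lies on chromosome 9 (58524298 to 58555437, minus strand), 37.3 Mb from Atr. It stood at 24.8, 25.2 and 26.0 CPM in wild-type libraries 1 to 3, against 25.1, 27.5 and 25.4 CPM in mutant libraries 1 to 3, a coefficient of variation of 3.76% over the 6 libraries. The groups overlapped, and the 95% interval of its log2 fold change of 0.04 ran from -0.24 to 0.31 (edgeR), or 0.848-fold to 1.24-fold.

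Lgals9 encodes galectin-9, a secreted sugar-binding protein. The gene (chromosome 11, 78962974 to 78984946, minus strand) reached 54.4, 51.5 and 58.4 CPM (ATR WT 1, 2, 3), set against 50.9, 48.1 and 47.7 CPM (ATR mD/mD 1, 2, 3). All 3 ATR mD/mD libraries lay below all 3 ATR WT libraries, the gap between ATR WT 2 and ATR mD/mD 1 being small. It was the 1 member of 10 with this order, which 2.58% of all genes had. This gave a log2 fold change of -0.16 (SE 0.106, 95% interval -0.42 to 0.09, unadjusted p = 0.166, edgeR), so Lgals9 was not called by genotype. In the receptor gene Havcr2 the groups overlapped.

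Havcr2 encodes TIM-3, an inhibitory receptor of T cells that macrophages and dendritic cells also carry. The gene (chromosome 11, 46454935 to 46481255, plus strand) measured 7.17, 6.85 and 7.10 CPM over ATR WT 1, 2 and 3 and, in order, 10.1, 8.13 and 4.52 CPM over ATR mD/mD 1, 2 and 3. The 3 ATR WT libraries lay within the range of the ATR mD/mD libraries, whose SD was 2.81 CPM against 0.166 CPM in ATR WT. As a log2 fold change this was 0.10 (SE 0.308, 95% interval -0.63 to 0.84, edgeR).

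Lag3 encodes a CD4-related receptor of activated T cells. The gene (chromosome 6, 124904361 to 124911705, minus strand) stood at 5.90, 5.27 and 3.81 CPM in wild-type libraries 1 to 3, against 4.20, 2.64 and 3.86 CPM in mutant libraries 1 to 3. ATR WT 1 and ATR WT 2 were above all ATR mD/mD libraries, and ATR WT 3 lay among them. The log2 fold change was -0.48 (SE 0.289, 95% interval -1.18 to 0.21, unadjusted p = 0.142, edgeR), the smallest p of the 10 members. Its neighbour Cd4, 16.1 kb away on the same strand, reached 6.15, 9.08 and 10.6 CPM (ATR WT 1, 2, 3), set against 4.29, 3.96 and 4.06 CPM (ATR mD/mD 1, 2, 3). Cd4 had a log2 fold change of -1.07 (SE 0.253, unadjusted p = 0.00458, adjusted p = 0.9999, edgeR quasi-likelihood), and its order over libraries differed from that of Lag3, since ATR WT 3 was the highest for Cd4 and the lowest ATR WT library for Lag3.

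Ctla4 (chromosome 1, 60887000 to 60915832, plus strand) measured 2.70, 2.81 and 4.52 CPM over ATR WT 1, 2 and 3 and, in order, 3.77, 1.80 and 1.95 CPM over ATR mD/mD 1, 2 and 3. ATR WT 3 and ATR mD/mD 1 were high and the groups overlapped. Between genotypes the log2 fold change was -0.42 (SE 0.392, 95% interval -1.36 to 0.52, edgeR). It was -0.83 without ATR mD/mD 1 and -0.15 without ATR WT 3. In bulk skin, fewer cells that carry such a transcript and less of it per cell cannot be told apart. The summed level of the 12 measured T cell markers (of 18 listed) ran from 237.2 to 281.5 CPM across wild-type libraries and from 186.8 to 275.5 CPM across mutant ones. Thy1, also listed as a fibroblast marker, had the highest mean level of these T cell markers. Of the 5 regulatory T cell markers, 3 were measured, and Foxp3, which defines these cells, was at 1.15 ± 0.517 and 0.999 ± 0.574 CPM (SD, n = 3). The part of T cell number in the Lag3 and Ctla4 levels was not tested.

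Cd200 (chromosome 16, 45382135 to 45409053, minus strand) encodes a surface glycoprotein that restrains myeloid cells. It stood at 78.1, 90.8 and 84.6 CPM in wild-type libraries 1 to 3, against 87.6, 74.6 and 61.1 CPM in mutant libraries 1 to 3. ATR mD/mD 3 was the lowest and ATR mD/mD 1 lay within the ATR WT range. On the log2 scale the fold change was -0.18 (SE 0.161, 95% interval -0.57 to 0.20, edgeR). The receptor gene Cd200r1 reached 3.86, 10.9 and 9.76 CPM (ATR WT 1, 2, 3), set against 10.01, 4.37 and 4.92 CPM (ATR mD/mD 1, 2, 3), with a log2 fold change of -0.35 (SE 0.488, edgeR).

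**Figure D2:**
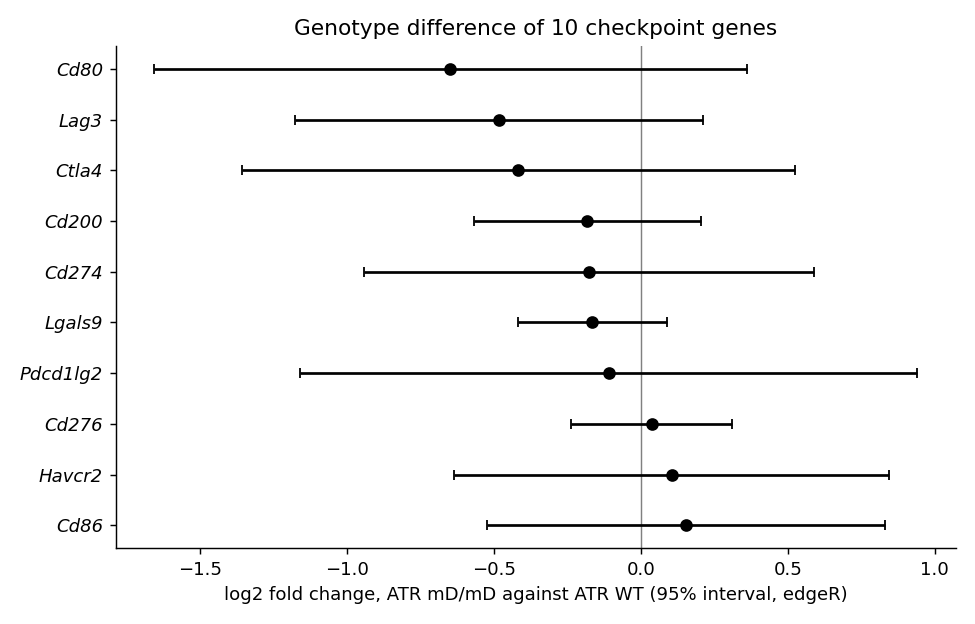
Log2 fold change of ATR mD/mD against ATR WT for the 10 checkpoint genes (horizontal axis), with the 95% interval of the edgeR quasi-likelihood fit (n = 3 and 3). All 10 intervals include 0; that of Cd276 is narrow (-0.24 to 0.31) and those of Pdcd1lg2 (-1.16 to 0.94) and Cd80 (-1.66 to 0.36) are wide.

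Some libraries were low or high in several members. ATR mD/mD 3 was the lowest library in 6 of the 10 members and the highest in 0. Over all genes it was the lowest in 26.3% and the highest in 27.5%. ATR mD/mD 1 was the highest in 3 members and in 12.1% of all genes, and ATR WT 3 in 3 members and in 21.6% of all genes. Some members were alike in their order over the libraries, whatever the genotype. The centred log2 CPM of Cd86 and Havcr2 differed by a root mean square of 0.133 over the 6 libraries, while Cd86 alone varied by 0.309 and Havcr2 by 0.343. That of Cd274 and Ctla4 differed by 0.182, while these 2 genes varied by 0.385 and 0.465.

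The order of several members followed the sex-linked split, a pattern that was looked at after the values had been seen. In Cd274, Pdcd1lg2, Cd80, Ctla4 and Cd200, each of the 3 libraries with a low Y-linked level (ATR mD/mD 1 and both ATR WT 2 and ATR WT 3) was above each of the other 3. That is 5 of 10 members, where 4.7% of all genes had this order. Cd80 and Pdcd1lg2 reached 1 CPM in these 3 libraries and in 0 of the other 3, so they met the limit of the table only through the libraries in which they were high, and their order and ratios are given only as a description. Among the other 8 members, 3 had the order. The mean level of Cd80 was 1.79 CPM in the libraries of low Y-linked level and 0.861 CPM in the others, a ratio of 2.08. The ratio was 1.83 for Pdcd1lg2, 1.72 for Ctla4, 1.55 for Cd274 and 1.23 for Cd200. Cd86, Havcr2, Lgals9, Lag3 and Cd276 overlapped, with ratios between 0.982 and 1.21.

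With the Y-linked level and genotype in 1 edgeR model over all genes, the Y-linked term had an unadjusted p of 0.0514 for Cd274, 0.0742 for Ctla4 and 0.125 for Cd200. The adjusted p was 0.9999 for each of these 3 (edgeR), and 0 of 10 members were called, as against 0.0276% of all genes, so the split is a description of 6 libraries. The genes tested included Xist and the Y-linked genes Ddx3y, Eif2s3y, Kdm5d and Uty, from which the level was made. In that model the genotype log2 fold change of Cd274 was -0.01, that of Cd80 was -0.25, that of Ctla4 was -0.22 and that of Lag3 was -0.48. The 3 libraries of low Y-linked level are 2 ATR WT and 1 ATR mD/mD, so the split is not balanced over genotype.

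Partner genes showed the same order in part. Cd200r1 and Cd28, which encode the receptors for CD200 and for the B7 ligands, were each higher in all 3 libraries of low Y-linked level: Cd28 was at 2.23, 2.58 and 1.97 CPM there and at 1.46, 1.57 and 0.801 CPM in ATR WT 1 and then ATR mD/mD 2 and 3. The summed levels of macrophage and mast cell markers did not overlap between the sides of the split. The summed level of the 15 macrophage markers, all measured, lay between 1281 and 1350 CPM in the libraries of low Y-linked level and between 680.9 and 959.5 CPM in the others, and 6 of 15 were above in all 3. The 7 mast cell markers, all measured, summed to between 288.3 and 330.1 CPM against 218.2 to 271.9 CPM, and 4 of 7 were above in all 3. Over all genes, 4.7% had this order.

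The summed levels of T cell and dendritic cell markers overlapped between the sides of the split. T cell markers, with Thy1 the highest, summed to 237.2 to 281.5 CPM in the libraries of low Y-linked level and 186.8 to 260.8 CPM in the others. Of these T cell markers, 2 of 12 were above in all 3. The 15 dendritic and Langerhans cell markers, all measured, summed to 2887 to 3685 CPM against 2080 to 3516 CPM. Of these, 5 of 15 were above in all 3, where 4.7% of all genes were. The summed level of the 2 measured B cell markers of 6 did not overlap, at 4.83 to 5.92 CPM against 2.36 to 3.18 CPM. Of these, 1 of 2 was above in all 3, and Cd79b had only 298 counts in all 6 libraries. The summed level of the 4 measured neutrophil markers of 8 overlapped, at 19.6 to 37.7 CPM against 11.2 to 21.6 CPM, and 1 of 4 was above in all 3. No listed marker of these 6 types was below in all 3. Keratinocyte markers overlapped at 16827 to 23656 CPM against 20165 to 28702 CPM, with 1 of 14 below in all 3, and of 12 fibroblast markers 3 were above and 2 below in all 3. The part of macrophage, mast cell and B cell content in the member levels was not tested.

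**Figure D3:**
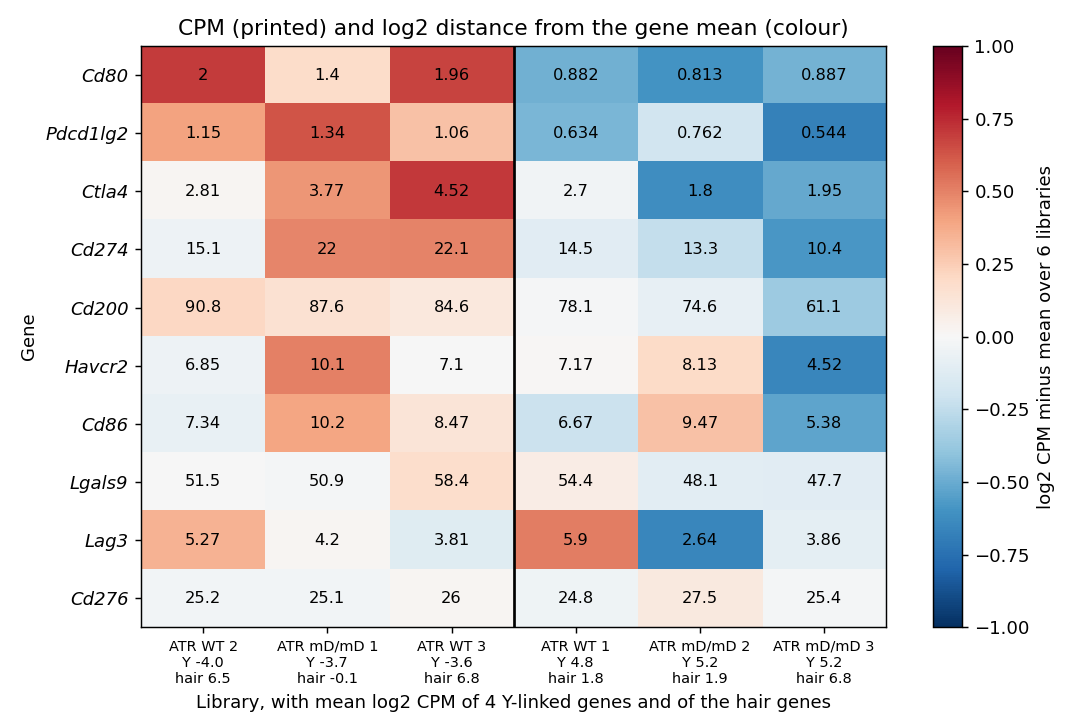
Checkpoint genes (rows, ordered by the ratio of libraries of low to high Y-linked level) in the 6 libraries (columns, ordered by Y-linked level). Each cell prints the CPM, and its colour is the distance of log2 CPM from the mean of that gene. Left of the vertical line, Cd80, Pdcd1lg2, Ctla4, Cd274 and Cd200 are higher in each library than in any library to the right.

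Levels of the members had no called relation to hair gene level. The hair level was put beside genotype as a continuous number in an edgeR model over all genes, which leaves 3 residual degrees of freedom. The hair term was called in 0 of 10 members (adjusted p under 0.05, same test), against 10.1% of all genes. Limma-voom also called 0, and at an unadjusted p under 0.05 edgeR called 0 of 10, where 27.4% of all genes were. Havcr2 came nearest, with a slope of -0.11 log2 units per unit of hair level (SE 0.046, unadjusted p = 0.0556, adjusted p = 0.195, edgeR). This slope was -0.02 without ATR mD/mD 3 (adjusted p = 0.794) and -0.17 without ATR WT 1 (adjusted p = 0.0801, edgeR). It was at 4.52, 6.85 and 7.10 CPM in the 3 libraries of higher hair level and at 7.17, 8.13 and 10.1 CPM in the 3 of lower hair level. It was the 1 member of 10 whose libraries of higher hair level were all below the others, an order that 17.1% of all genes had.

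The other members overlapped between the libraries of higher and lower hair level. Cd276 was at 25.2 to 26.0 CPM with higher hair level and at 24.8 to 27.5 CPM with lower, a slope of 0.002 (SE 0.0223, edgeR). Cd200, a gene of follicle cells, was at 61.1 to 90.8 CPM and at 74.6 to 87.6 CPM, a slope of -0.03 (SE 0.0286). Cd274 was at 10.4 to 22.1 CPM and at 13.3 to 22.0 CPM, a slope of -0.06 (SE 0.0591).

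Differences by hair level had opposite signs within the 2 genotypes for most members. For Cd274 the mean log2 CPM in libraries of higher hair level minus that in libraries of lower hair level was 0.33 among wild-type libraries and -0.71 among mutant libraries. For Cd80 these differences were 1.12 and -0.26, and for Cd86 they were 0.24 and -0.86. The signs were reversed for Lag3, at -0.39 and 0.21, and both were negative for Havcr2, at -0.04 and -0.99. In each genotype the side with 1 library has no spread of its own, and the difference between genotypes was not tested. Within ATR WT the libraries of higher hair level are also those of low Y-linked level, so the hair and Y-linked splits cannot be told apart there. Within ATR mD/mD the library of higher hair level, ATR mD/mD 3, had a high Y-linked level, as had ATR mD/mD 2. Other groups moved with hair level: 10 of 12 melanocyte markers had a called positive slope, while 7 of 8 skeletal muscle markers and 3 of 12 T cell markers had a called negative slope (edgeR quasi-likelihood). Muscle markers summed to 6817 to 12048 CPM in the libraries of higher hair level and 20131 to 31370 CPM in the others, and their part in the member levels was not tested.

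**Figure D4:**
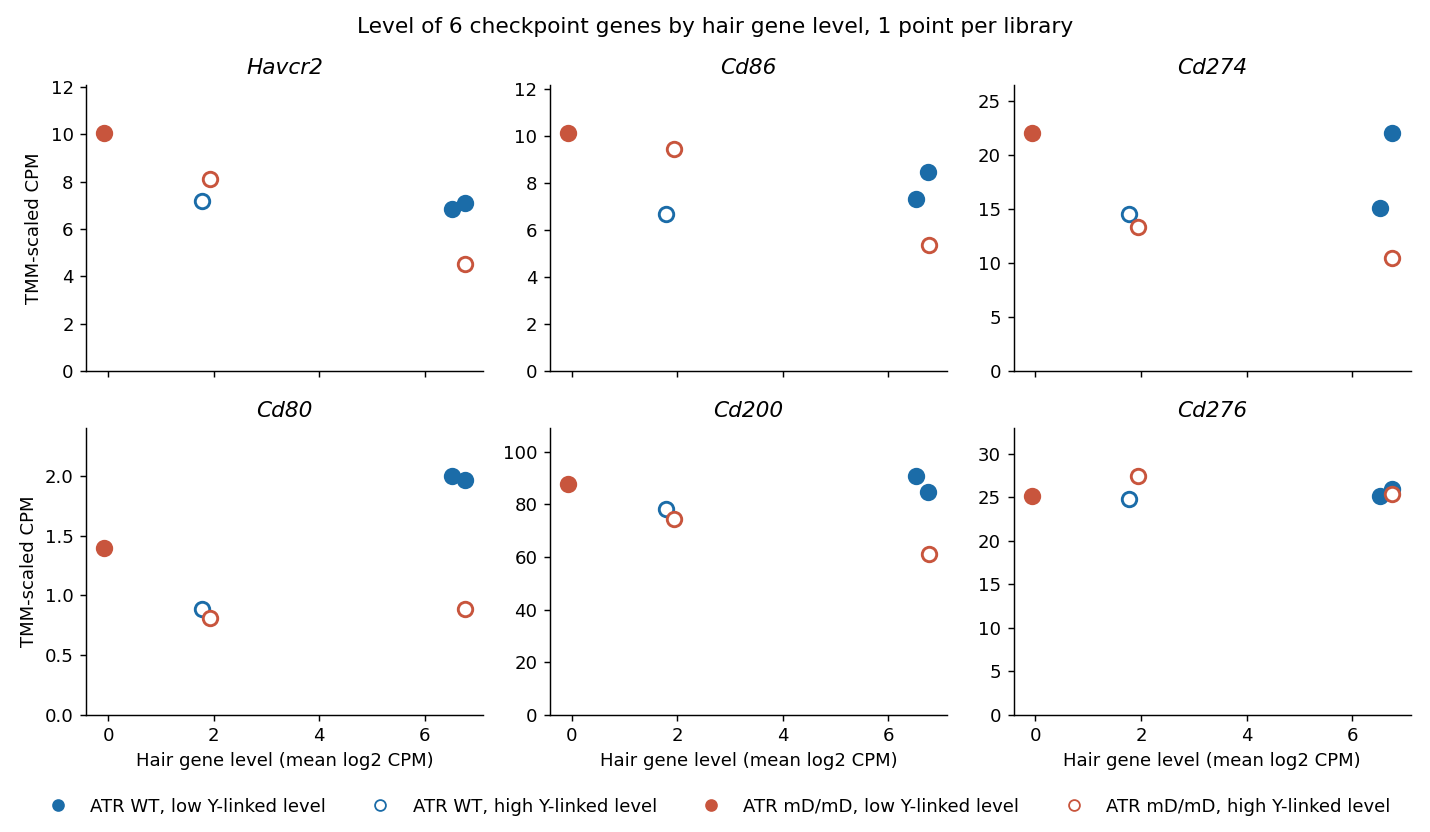
TMM-scaled CPM (vertical axes, from 0) of 6 checkpoint genes against the mean log2 CPM of the 36 hair genes (horizontal axis), 1 point per library, coloured by genotype and filled where the Y-linked level is low. Havcr2 is at or below 7.10 CPM in the 3 libraries of higher hair level and at or above 7.17 CPM in the others; Cd276 stays between 24.8 and 27.5 CPM.

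None of the listed partners of the members, or of the relatives of such partners, passed the test of genotype. Of 11 listed genes, 8 were measured, of which 6 had a log2 fold change below 0 and 0 were called, with a median of -0.24. Every ATR mD/mD library was below every ATR WT library for 2 of them, Cd4 and Fgl2, an order that 2.58% of all genes had. Fgl2, a fibrinogen-like protein of macrophages and T cells, was at 124.0 ± 9.15 CPM in wild-type and 101.9 ± 7.63 CPM in mutant skin (n = 3, SD; log2 fold change -0.28, SE 0.127, adjusted p = 0.9999, edgeR). Timd4, a phosphatidylserine receptor, had a log2 fold change of 0.93 (SE 0.579) with counts of 57, 46 and 52 against 79, 157 and 27. Cd28 and Ceacam1, a reported TIM-3 partner, had -0.53 (SE 0.412) and -0.19 (SE 0.338).

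Of 28 other co-inhibitory genes, 19 were measured and 0 were called (median log2 fold change 0.02). Siglece, a sialic acid receptor of myeloid cells, had 63, 74 and 91 counts in wild-type libraries and 26, 38 and 24 in mutant libraries, or 1.77 ± 0.0844 and 0.798 ± 0.147 CPM (SD, n = 3). The difference was -1.14 on the log2 scale (SE 0.27; adjusted p = 0.9999 in edgeR). It reached 1 CPM in 3 ATR WT libraries and 0 ATR mD/mD libraries, so it is in the table only through the group in which it was high. Nt5e, the ectonucleotidase CD73 that makes adenosine, had the opposite sign, at 45.2 ± 3.27 CPM in wild-type and 59.0 ± 6.24 CPM in mutant skin (n = 3, SD; log2 fold change 0.38, SE 0.125, unadjusted p = 0.0199, adjusted p = 0.9999, edgeR). All 3 ATR mD/mD libraries were above all 3 ATR WT libraries for Nt5e, as in 327 of 14484 genes. The groups of Siglece did not overlap either, which is given only as a description because of that limit. Cd72 and Tgfb1 stood at log2 fold changes of 0.42 (SE 0.341) and -0.12 (SE 0.14).

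Of 22 co-stimulatory genes, 14 were measured, 10 had a log2 fold change below 0 and 0 were called (median -0.09). Icam1, an adhesion molecule that binds T cells, measured 46.9, 47.3 and 52.7 CPM over ATR WT 1, 2 and 3 and, in order, 36.0, 43.5 and 36.7 CPM over ATR mD/mD 1, 2 and 3. Every ATR mD/mD library was below every ATR WT library for Icam1, as in 2.58% of all genes. Its log2 fold change was -0.34 (SE 0.129, unadjusted p = 0.0365, adjusted p = 0.9999, edgeR). The log2 difference was -0.38 (SE 0.274) for Tnfsf9, -0.49 (SE 0.433) for Icos and 0.55 (SE 0.637) for Tnfsf18. Tnfsf18, the ligand of GITR, had a called hair slope of -0.30 (adjusted p = 0.0191, edgeR quasi-likelihood).

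No regulator of Cd274 passed the test of genotype. Of 22 listed genes of interferon gamma signalling, PD-L1 stability and related control, 21 were measured. Of these, 16 had a log2 fold change below 0, 0 were called and 0 had an unadjusted p under 0.05 (edgeR), with a median of -0.04. Ifngr2, a chain of the interferon gamma receptor, was at 84.5 ± 14.2 and 66.8 ± 17.6 CPM (n = 3, SD; log2 fold change -0.34, SE 0.234). It was highest in ATR WT 1 at 100.9 CPM and lowest in ATR mD/mD 3 at 46.4 CPM, the lowest library for 26.3% of all genes. Its relation to the Cd274 level was not tested. Irf1 and Socs1, a transcription factor and a feedback inhibitor of the pathway, gave log2 fold changes of -0.21 and -0.33, with SEs of 0.18 and 0.239. All 36 listed interferon response genes were measured, of which 23 were below 0 with a median of -0.12, 6 had an unadjusted p under 0.05, all lower, where 1.09% of all genes were lower at that p, and 0 were called (edgeR). In 7 of the 36 the ATR mD/mD libraries were all below the ATR WT libraries, the order that Lgals9 and 2.58% of all genes had. The list was chosen with earlier results of these data known, so these shares are a description only.

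The genes closest to each member over the 6 libraries were found by the root mean square difference of log2 CPM after centring each gene, among about 12991 genes with a mean of at least 1 log2 CPM. For Cd274 these were Samsn1 (0.0822) and Pik3cg (0.0826), where the median gene differed by 0.446 and Cd274 itself varied by 0.385. For Pdcd1lg2 they were Cd48 (0.0871) and Pyhin1 (0.0934), for Cd80 Slamf7 (0.0882) and Ntrk3 (0.123), and for Ctla4 Cxcr6 (0.108) and Il13ra2 (0.111). Havcr2 was close to Fmnl1 (0.0466), Cd86 was closest to Abhd15 (0.0677) and Taok3 (0.0678), and Lag3 to Fbxo2 (0.113) and Rtp4 (0.115). Cd200 was closest to St6galnac4 (0.0447) and Shox2 (0.056), Lgals9 to Mboat7 (0.0264) and Chordc1 (0.0326), and Cd276 to Paics (0.0246) and Tbc1d9b (0.0254). With 6 libraries and this many genes, near matches occur for most profiles, so these are descriptions of the libraries.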

How the data were processed

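RNA from 6 skin samples was sequenced after oligo dT selection with the TruSeq RNA v2 kit, per the labels' protocols, a kit that does not mark strand. TopHat2 2.0.12, FastQC, edgeR and mm10 come from the submitters' processing notes; for the read counter, the annotation and any low-count filter, this is "not given in the sources used here". As deposited by the authors, the table holds raw whole-number counts per gene and library, per the file headers. It also gives the deposited log2 fold change, mean log2 CPM, p-value and adjusted p-value, per the file headers. Of 14486 rows, 2 name no gene (4.93% to 5.72% of a library) and were left out.

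Counts were scaled by TMM and tested with edgeR 4.0.16 (quasi-likelihood, R 4.3.3) over 14484 genes with Benjamini-Hochberg adjustment. The filter filterByExpr removed no gene. SE is the log2 fold change over the square root of F, and 95% intervals use the moderated degrees of freedom. Hair level is the mean log2 CPM (prior count 2) of 36 of 37 listed genes. The scripts were tested on simulated data. Alternatives were RLE, no filter, a 1 CPM filter, DESeq2 1.42.0, limma-voom (limma 3.58.1), the exact test, a replicate block, a hair covariate and leaving out each library. The Y-linked covariate and the promoter motifs were chosen after the values were seen.

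The members and lists were chosen with earlier results of these data known. The named genes are all members, the 4 genes of smallest p in each of 4 related lists, 5 fixed partner genes (Pdcd1, Cd28, Cd200r1, Ceacam1 and Cd4), and the 2 genes closest to each member. Some genes that this rule names, and a motif, are not reported here. Libraries of a group differed by at least 55.3 times the sampling noise (chi-square per degree of freedom), so none was a duplicate. Positions and exon lengths come from GENCODE M21 (mm10), and no gene that overlaps a member there is a row of the table under its GENCODE symbol.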

Additional observations from a re-analysis of the deposited data

How the results depend on the processing

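No member was called by genotype under any alternative run, and no member had a called hair term. The number of genes called over the whole table was less stable: 7 lower and 0 higher became 33 and 6 with DESeq2, and 23 and 2 with the edgeR exact test. It was 10 lower and 1 higher with the hair covariate. It was 4 lower and 0 higher with the Y-linked level, which was added after the data were seen. Leaving out 1 library gave 4 to 9 lower and 0 to 1 higher. The count of genes with a called hair term, 1464, ran from 207 (without ATR mD/mD 3) to 1204 with 1 library left out. The cause of these shifts was not tested, beyond the fewer samples fitted.

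Signs of small differences turned. The log2 fold change by genotype of Cd86 and Havcr2 became -0.040 and -0.20 with the hair covariate, and that of Pdcd1lg2 became 0.20 with the Y-linked level. With 1 library left out, log2 fold changes ran from -0.53 to 0.034 for Cd274, -0.53 to 0.14 for Pdcd1lg2, -0.0053 to 0.063 for Cd276, -0.0072 to 0.39 for Cd86 and -0.15 to 0.37 for Havcr2. The sign held but the size moved by over 1.5 times for Cd200 (-0.31 without ATR mD/mD 1 to -0.059 without ATR mD/mD 3), Lag3 (-0.66 without ATR WT 3 to -0.31 without ATR mD/mD 2) and Ctla4 (-0.83 to -0.15). Signs turned without ATR WT 3 or ATR mD/mD 3 (Cd274), ATR WT 2 or ATR mD/mD 3 (Pdcd1lg2), ATR mD/mD 2 (Cd276) and ATR mD/mD 1 (Cd86 and Havcr2). Hair slopes ran from -0.076 to 0.016 for Cd200, -0.14 to 0.027 for Cd274, -0.0091 to 0.015 for Cd276, -0.081 to 0.17 for Cd80, -0.14 to 0.040 for Cd86, -0.12 to 0.062 for Ctla4 and -0.18 to 0.094 for Pdcd1lg2. The hair slope of Cd276 became -0.0011 with RLE. With the replicate number as a block, 6 genes were lower and 0 higher, and 7 members were below 0. Deviations of same-numbered libraries correlated at 0.63, -0.51 and 0.57 for numbers 1, 2 and 3, so not every pair correlated and the numbers were not taken to pair the libraries. A hair model with the block was not run, for lack of residual degrees of freedom. With 3 libraries a group, the intervals of Cd80, Ctla4, Lag3 and Pdcd1lg2 include a decrease of 2-fold.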
